A study of Mus musculus with 8 samples.

Results

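Fatty acid desaturases and elongases were measured in mouse liver by 9 genes: the desaturases Scd1, Scd2, Fads1 and Fads2, and the elongases Elovl1, Elovl2, Elovl3, Elovl5 and Elovl6. They were taken by name from all non-control probes of a 2-colour microarray, and 10 of its 41174 probes matched, for 9 of the 22225 genes that could be measured. Each gene had 1 probe, apart from Elovl5, which had a second. All 10 probes were among the 33335 that passed a filter for signals well above background, and on every array both channels of each were well above background and unsaturated.

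The mice were 8 weeks old, of the strain ICR scid, which lacks mature T and B cells. Whole liver RNA of untreated males was compared with that of untreated females. RNA of mice given Adeno-Cux2, an adenovirus that carries the transcription factor Cux2, was compared with that of mice given Adeno-CMV, the control adenovirus. This was done in males 5 days after treatment, in females 5 days after treatment and in males 3 days after treatment. Each comparison had 2 arrays with separate pools of 3 to 7 livers and with the dyes exchanged. A value thus has n = 2 arrays unless it is said to come from 1. Its error rests on 1 spread per probe, shared by all comparisons, and not on the 2 arrays of a comparison alone. That error holds the variation among pools and says nothing of single mice. Values are log2 ratios ± standard error from 1 limma fit to all 8 arrays, and a gene passed the test at an adjusted p under 0.05, after Benjamini-Hochberg adjustment over all probes.

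The median spot signal of an array was 343 to 442 in the green channel and 430 to 512 in the red channel, and 68.2% to 80.1% of spots were well above background in a channel. Over all probes, Pearson's r between the 2 arrays of 1 comparison was 0.596 (untreated), 0.865 (day 5 males), 0.681 (day 5 females) and 0.89 (day 3 males), and probes are not independent replicates. Cux2 itself, by its brighter probe, was higher in Adeno-Cux2 males than in Adeno-CMV males, with log2 ratios of 0.61 and 0.60 on the 2 arrays at day 5 and 0.39 and 0.58 at day 3. In females the ratio ran against the label, at −0.58 and −0.65 for pools labelled Adeno-Cux2 over pools labelled Adeno-CMV. In untreated mice the male over female ratio of Cux2 was −1.74 and −2.02. The other Cux2 probe was not well above background in the Adeno-CMV males. The brighter probe was dim in males. On the day 5 array of replicate 1 its raw signals were 412.5 for Adeno-Cux2 (red) and 304 for Adeno-CMV (green). The median backgrounds of that array were 328 in red and 290 in green. Which part of Cux2 the virus carries is not given in the sources used here, so it is not known whether the probe reads the viral transcript. The female pools are called by their labels throughout.

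Desaturases put double bonds into fatty acids bound to coenzyme A, and elongases carry out the first step of the cycle that lengthens them in the endoplasmic reticulum. Scd1 and Scd2 make monounsaturated fatty acids from saturated ones, and Scd1 is the main form in adult mouse liver. Fads1 and Fads2 act in turn with Elovl5 and Elovl2 to make long polyunsaturated fatty acids from the essential ones of the diet. Elovl6 lengthens the palmitate made by fatty acid synthase, Elovl1 acts on saturated very long chains, and Elovl3, known from brown fat, skin and liver, acts on saturated and monounsaturated very long chains. Several of these genes are known targets of the lipogenic factor SREBP-1 and of nuclear receptors such as LXR and PPAR-alpha.

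On the mouse build mm8, which the array's annotation uses, 5 of the 10 probes lay on chromosome 19. The Scd1 probe (A_52_P682382) was at chr19:44448208-44448267 on the minus strand, and that of its neighbour Scd2 (A_51_P129464) at chr19:44359845-44359904 on the plus strand. The Elovl3 probe (A_51_P324633) was at chr19:46188583-46188642. The other desaturases were read at chr19:10263085-10263144 (Fads1, A_51_P358112) and chr19:10131305-10131735 (Fads2, A_51_P364609), the last with a span of 431 bases in the genome. The other elongases were read at chr4:117930352-117930411 (Elovl1, A_51_P120305), chr13:41194185-41194244 (Elovl2, A_51_P292582), chr3:129630352-129630411 (Elovl6, A_51_P463440), and chr9:77770082-77770141 and chr9:77769477-77769536 (Elovl5, A_51_P505493 and A_52_P676944). The first Elovl5 probe is brighter and stands for the gene in all counts. Levels are compared within a probe only, never between genes.

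The 250 bases upstream of the annotated start are shown for Elovl5, Elovl6 and Fads2, because these genes were lower in Adeno-Cux2 than in Adeno-CMV males at day 3 and had higher ratios at day 5 than at day 3. RefSeq promoters of build GRCm38.p6 matched 5 of the 9 genes, and no entry matched Scd1, Scd2, Elovl3 or Fads1. Sequences run 5′ to 3′ on the gene's strand and end at the base before the start, at chr9:77917115-77917364 on the plus strand for Elovl5, chr3:129532136-129532385 on the plus strand for Elovl6 and chr19:10101504-10101753 on the minus strand for Fads2. Capitals mark matches, on either strand, to 6 motifs. These are TTCNNNGAA, which STAT5 is known to bind, then ATTGAT as a short homeodomain string and its variant ATCGAT, the CCAAT box of NF-Y, the nuclear receptor half-site TGACCT, and the E-box CACGTG of USF and related factors.
Elovl5: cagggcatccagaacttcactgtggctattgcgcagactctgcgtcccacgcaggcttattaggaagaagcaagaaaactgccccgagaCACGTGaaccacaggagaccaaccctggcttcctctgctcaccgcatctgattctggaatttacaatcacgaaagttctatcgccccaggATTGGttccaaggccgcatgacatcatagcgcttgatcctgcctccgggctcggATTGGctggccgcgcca
Elovl6: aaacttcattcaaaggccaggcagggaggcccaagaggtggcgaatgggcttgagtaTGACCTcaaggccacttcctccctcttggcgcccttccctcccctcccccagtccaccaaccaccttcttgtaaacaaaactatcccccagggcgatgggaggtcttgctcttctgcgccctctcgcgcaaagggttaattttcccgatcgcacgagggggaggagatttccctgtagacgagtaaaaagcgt
Fads2: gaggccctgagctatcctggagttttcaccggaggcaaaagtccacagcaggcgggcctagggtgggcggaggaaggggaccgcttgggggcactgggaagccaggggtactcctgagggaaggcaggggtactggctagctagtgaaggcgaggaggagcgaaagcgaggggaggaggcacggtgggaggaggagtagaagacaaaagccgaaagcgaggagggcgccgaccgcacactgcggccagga
Elovl5 held CACGTG at 161 to 156 bases upstream of the start, and CCAAT on the reverse strand at 71 to 67 and at 17 to 13 bases upstream. Elovl6 held TGACCT at 193 to 188 bases upstream. None of the 6 motifs had a match in the 250 bases of Fads2, nor in those of the 2 overlapping entries of Elovl2. Elovl1, whose level did not pass the test in any comparison, has 2 annotated starts, with CCAAT at 35 to 31 bases upstream of one and TGACCT at 95 to 90 bases upstream of the other. Over 32851 promoter windows of the same length, CCAAT was in 33.8%, TGACCT in 14%, TTCNNNGAA in 7.02%, ATTGAT in 6.72%, CACGTG in 6.02% and ATCGAT in 0.728%. A match is a string of letters and was not tested as a binding site.

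The comparison of untreated males with untreated females asks which genes differ by sex. Elovl3 was higher in males by 9.62-fold, and Elovl5 was 1.29-fold lower in males by its brighter probe. The other 7 genes did not pass the test. Thus 1 of 9 genes was higher and 1 lower in males, where 4.71% of all probes were higher and 5.07% lower. The median log2 ratio was −0.17 over the 9 genes and −0.0021 over all probes. These are values of whole liver, in which fewer cells of a type and less RNA per cell cannot be told apart.

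Elovl3 gave male over female log2 ratios of 3.26 and 3.28 on the 2 arrays, a fitted 3.27 ± 0.09 (adjusted p = 2.38e-05, limma). Its log2 levels were 12.29 and 13.34 in the male pools, against 9.03 and 10.06 in the female pools. The sexes did not overlap, and the 2 arrays differed less in the ratio than in either level. Over 20 alternative settings of the processing the ratio was between 2.77 and 3.48 and passed the test in all of them.

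Elovl5, which lengthens polyunsaturated fatty acids, gave −0.38 and −0.36, a fitted −0.37 ± 0.07 (adjusted p = 0.0253, limma). Its second probe gave 0.01 and −0.30, a fitted −0.14 ± 0.08 (adjusted p = 0.285), so the sex difference of Elovl5 rests on 1 of 2 probes. It passed the test in 14 of 21 alternatives, and without the untreated array of replicate 1 it was −0.26 (adjusted p = 0.28). Fads2 gave −0.16 and −0.50 (fitted −0.33 ± 0.09, adjusted p = 0.0585), and both arrays lay on the female side.

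Of the other 6 genes, none passed, and Scd1, Scd2 and Elovl2 changed sign between the 2 arrays. Scd1 gave 0.28 on one array and −1.11 on the other, a fitted −0.42 ± 0.24 (adjusted p = 0.308), with a 95% interval of −0.97 to 0.14. Elovl6 gave −0.28 and −0.53 (fitted −0.41 ± 0.25, adjusted p = 0.346). Elovl2 gave 0.56 and −0.16, and Scd2 −0.35 and 0.16. Fads1 gave −0.01 and −0.33, and Elovl1 0.17 and 0.06.

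**Figure D1:**
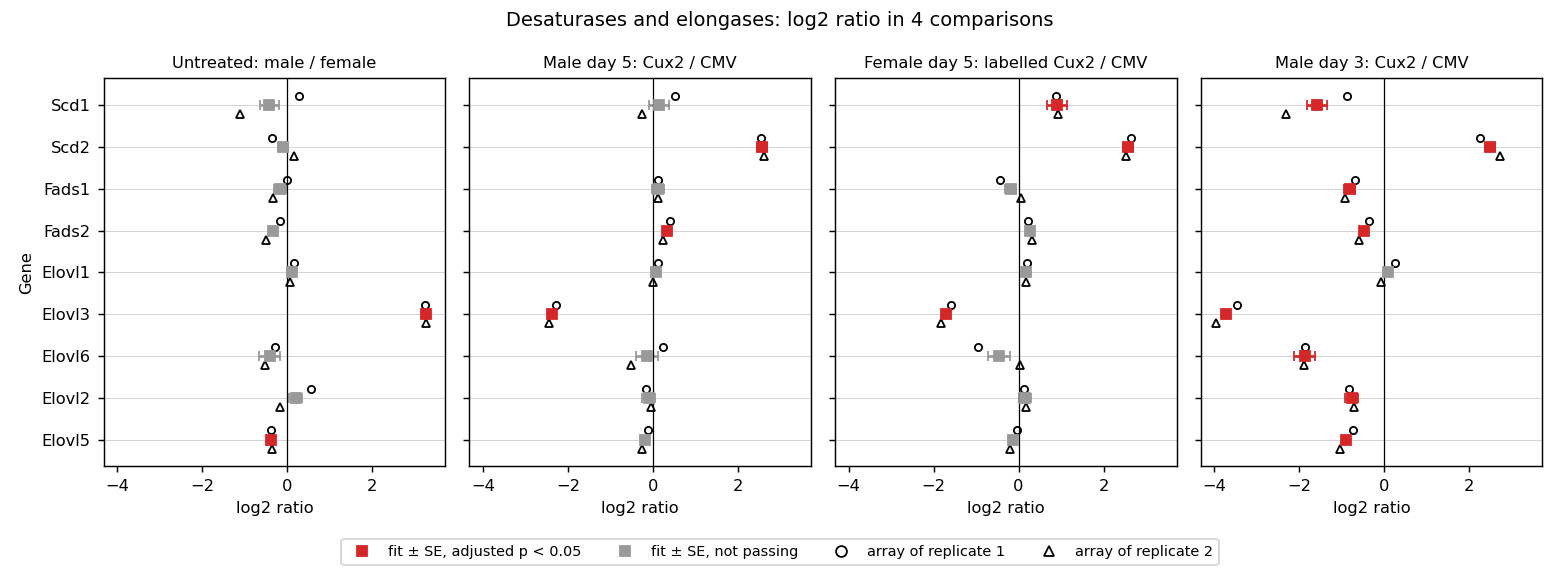
Log2 ratio (horizontal axis) of the 9 genes (rows) in the 4 comparisons (panels), with the fitted value ± standard error as a square and the 2 arrays as open symbols. Elovl3 stands at 3.27 in untreated males over females and below 0 in the 3 adenovirus comparisons, Scd2 stands at 2.49 to 2.58 in those 3, and 7 of 9 genes lie below 0 at day 3 with a passing test.

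In males 5 days after treatment, the question was which of these genes respond to Adeno-Cux2. Scd2 was 5.95-fold higher and Elovl3 5.14-fold lower in Adeno-Cux2 than in Adeno-CMV livers, and Fads2 was 1.25-fold higher. With 2 of 9 genes higher and 1 lower, the background was 12% of all probes higher and 4.78% lower. The median over the 9 genes was 0.07, against 0.0025 over all probes.

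Scd2 had log2 ratios of 2.54 and 2.61 on the 2 arrays, a fitted 2.57 ± 0.12 (adjusted p = 6.72e-05, limma). Its log2 levels were 12.98 and 13.23 in Adeno-Cux2 pools, against 10.44 and 10.62 in Adeno-CMV pools. Scd1, its neighbour and close relative, had 0.52 and −0.25, a fitted 0.13 ± 0.24 (adjusted p = 0.772), and its 2 arrays lay on either side of 0.

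Elovl3 had −2.27 and −2.45, a fitted −2.36 ± 0.09 (adjusted p = 6.62e-05, limma). Its log2 levels were 9.83 and 9.85 in Adeno-Cux2 males, against 12.10 and 12.31 in Adeno-CMV males. The Adeno-Cux2 levels lay within the range of the untreated female pools, and the Adeno-CMV levels touched that of the untreated males, whose lower pool was at 12.29. These levels are set across arrays and are a description.

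Fads2, the first desaturase of polyunsaturated synthesis, had 0.41 and 0.24, a fitted 0.33 ± 0.09 (adjusted p = 0.0429, limma). Its value moved little, between 0.27 and 0.33 over 20 alternatives, but it passed the test in 10 of them and without either male day 5 array it did not (adjusted p = 0.38 and 0.379). Fads1 was at 0.12 and 0.13 on the 2 arrays, Elovl5 at −0.11 and −0.26, Elovl6 at 0.25 and −0.52, Elovl2 at −0.15 and −0.05 and Elovl1 at 0.12 and 0.01. None of these 5 genes passed the test.

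In females 5 days after treatment, Scd2 was 6-fold higher and Elovl3 3.26-fold lower in the pools labelled Adeno-Cux2 than in those labelled Adeno-CMV, and Scd1 was 1.86-fold higher. Again 2 of 9 genes were higher and 1 lower, with 11.2% of all probes higher and 6.2% lower. The median over the 9 genes was 0.16, against −0.0019 over all probes.

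Scd2 had log2 ratios of 2.64 and 2.53, a fitted 2.58 ± 0.12 (adjusted p = 0.000167, limma). Its levels were 14.05 and 14.26 in pools labelled Adeno-Cux2, against 11.41 and 11.74 in pools labelled Adeno-CMV. Elovl3 had −1.58 and −1.83, a fitted −1.70 ± 0.09 (adjusted p = 0.000212, limma), with levels of 7.33 and 6.92 against 8.91 and 8.75. Its spots were dim here: the raw signals were 514 and 374.5 in pools labelled Adeno-Cux2, against 707 and 838 in pools labelled Adeno-CMV. The median backgrounds of the female arrays were 312 to 342.5. Accordingly the size of the Elovl3 fall in females depended on how background was removed. With no background subtraction it was −0.83 (adjusted p = 0.0569), and its largest value over the alternatives was −2.43.

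Scd1 had 0.88 and 0.92 in females, a fitted 0.90 ± 0.24 (adjusted p = 0.0417, limma). The ratio was alike on both arrays although the level was not, at 16.29 in one pool labelled Adeno-Cux2 and 14.49 in the other, against 15.41 and 13.57 in the pools labelled Adeno-CMV. It passed the test in 12 of 20 alternatives, and without the array of replicate 2 the fitted value was 0.28 (adjusted p = 0.484). Fads2, at 0.22 and 0.32 (adjusted p = 0.0764), and Elovl1, at 0.19 and 0.17 (adjusted p = 0.155), were above 0 on both arrays without passing. Elovl6 was at −0.95 on one array and 0.03 on the other, Fads1 at −0.42 and 0.06, Elovl2 at 0.14 and 0.17, and Elovl5 at −0.03 and −0.20.

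The female response was set against the male response at day 5 as female minus male. None of the 9 genes passed that test in limma, where 0.054% of all probes were higher and 0.147% lower. The difference of Scd1 was 0.76 ± 0.33 (adjusted p = 0.516), with a 95% interval of −0.02 to 1.55. That of Elovl3 was 0.66 ± 0.13 (adjusted p = 0.121), the 1 gene with an unadjusted p under 0.05. Over 18 alternative settings the Elovl3 difference was between 0.096 and 1.27. The difference of Scd2 was 0.01 ± 0.17 (adjusted p = 0.994), with a 95% interval of −0.38 to 0.41. These differences take the female labels as given, which the Cux2 ratio ran against. With the female ratio turned, the responses of Scd2 and of Elovl3 would lie on opposite sides of 0 in females and males. Whether the female labels are turned was not tested. The arrays of females lay on another slide than those of day 5 males, so slide and sex cannot be told apart in these differences.

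In males 3 days after treatment, 7 of the 9 genes were lower and 1 was higher in Adeno-Cux2 than in Adeno-CMV livers, and Elovl1 did not pass the test. Elovl3 was 13.1-fold lower, Elovl6 3.65-fold, Scd1 3.01-fold, Elovl5 1.85-fold, Fads1 1.76-fold, Elovl2 1.70-fold and Fads2 1.40-fold, whereas Scd2 was 5.61-fold higher. The background was wide on this day, with 20.1% of all probes lower and 22.8% higher. The median log2 ratio over the 9 genes was −0.81, against −0.0011 over all probes. All 8 genes passed with the arrays median centred, 6 did without the array of replicate 2, where Fads1 (adjusted p = 0.0673) and Fads2 (adjusted p = 0.0765) were lost, and 7 without that of replicate 1, where Elovl2 was lost (adjusted p = 0.104).

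Among the desaturases, Scd1 had log2 ratios of −0.87 and −2.30, a fitted −1.59 ± 0.24 (adjusted p = 0.00169, limma). Its levels were 15.87 and 15.08 in Adeno-Cux2 pools, against 16.75 and 17.38 in Adeno-CMV pools, and the treatments did not overlap. Scd2 had 2.25 and 2.73, a fitted 2.49 ± 0.12 (adjusted p = 2.1e-05, limma), with levels of 13.45 and 14.07 against 11.20 and 11.34. The 2 neighbouring genes of 1 reaction thus moved in opposite directions on both arrays. Fads1, which acts after Fads2 in the polyunsaturated pathway, had −0.69 and −0.93, a fitted −0.81 ± 0.13 (adjusted p = 0.00266), and Fads2 had −0.37 and −0.60, a fitted −0.48 ± 0.09 (adjusted p = 0.00386).

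Among the elongases, Elovl3 had −3.47 and −3.96, a fitted −3.71 ± 0.09 (adjusted p = 9.36e-06, limma). Its levels were 9.03 and 10.14 in Adeno-Cux2 males, against 12.49 and 14.10 in Adeno-CMV males. Elovl6 had −1.86 and −1.88, a fitted −1.87 ± 0.25 (adjusted p = 0.00105), with levels of 12.77 and 12.85 against 14.65 and 14.71. Of the 8 sets of pools, male Adeno-Cux2 at day 3 had the lowest mean Elovl6 level and male Adeno-CMV at day 3 the highest.

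The polyunsaturated elongases were lower as well. Elovl5 had −0.74 and −1.03, a fitted −0.89 ± 0.07 (adjusted p = 0.000123), and its second probe −0.83 and −1.11, a fitted −0.97 ± 0.08 (adjusted p = 0.000117). Elovl2 had −0.83 and −0.71, a fitted −0.77 ± 0.15 (adjusted p = 0.00533). Elovl1, the elongase of saturated very long chains found in most tissues, had 0.26 and −0.08, a fitted 0.09 ± 0.07 (adjusted p = 0.396), with a 95% interval of −0.09 to 0.27.

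Day 5 was set against day 3 in males, as the log2 ratio of Adeno-Cux2 over Adeno-CMV at day 5 minus that at day 3. The ratio was higher at day 5 for 6 of 9 genes, Scd1, Fads1, Fads2, Elovl3, Elovl5 and Elovl6, and lower for none, where 7.25% of all probes were higher and 4.81% lower. The difference was 1.73 ± 0.35 for Elovl6 (adjusted p = 0.0244) and 1.72 ± 0.33 for Scd1 (adjusted p = 0.0209). Elovl3 differed by 1.35 ± 0.13 (adjusted p = 0.00315), Fads1 by 0.94 ± 0.19 (adjusted p = 0.0237), Fads2 by 0.81 ± 0.12 (adjusted p = 0.00969) and Elovl5 by 0.70 ± 0.10 (adjusted p = 0.00893). Scd1, Fads1, Elovl5 and Elovl6 passed the test at day 3 and did not at day 5, Fads2 was lower at day 3 and higher at day 5, and Elovl3 was lower on both days.

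The difference of days did not pass for Elovl2, at 0.67 ± 0.21 (adjusted p = 0.0869), Elovl1, at −0.02 ± 0.11 (adjusted p = 0.935), and Scd2, at 0.08 ± 0.17 (adjusted p = 0.805). For Scd2 the 95% interval ran from −0.31 to 0.48, against responses of 2.57 at day 5 and 2.49 at day 3. The count of 6 rests on single arrays: it was 1 without the male day 5 array of replicate 1, 0 without that of replicate 2, and 1 without the male day 3 array of replicate 2. The count fell less without the male day 3 array of replicate 1. Each of these fits leaves 1 array in a group, and the share of all probes that passed fell as well. The loss in these fits is thus not particular to these genes. With no background subtraction the count was 2, although 10.1% of all probes still passed, against 12.1%. With the scanner software's own ratios the count was 1, and 1.74% of all probes passed. The day 5 and day 3 arrays lay on separate slides, so slide and day cannot be told apart here.

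**Figure D2:**
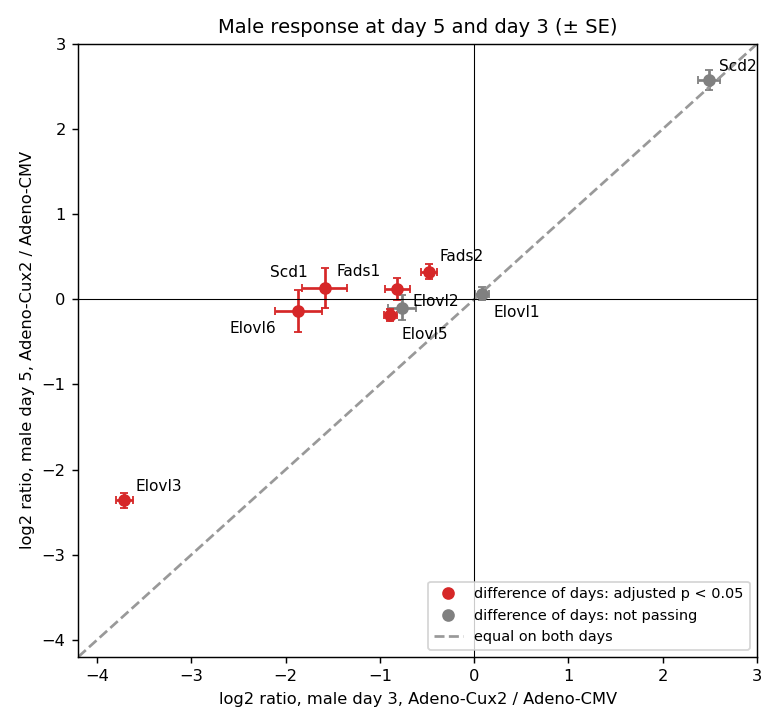
Log2 ratio of Adeno-Cux2 over Adeno-CMV in day 5 males (vertical axis) and at day 3 (horizontal axis) for the 9 genes, with standard errors as bars. Red points passed the test of the difference between days: these 6 genes lie above the dashed line of equal response, while Scd2 (2.57 and 2.49) and Elovl1 (0.07 and 0.09) lie on or near it.

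The order of the levels over the 8 sets of pools differed between the genes. Untreated and day 5 male pools lay on one slide, and day 5 female and day 3 male pools on another. Slide thus cannot be told apart from differences in level between these groups of pools, and the order is a description. Elovl3 had its highest mean log2 level in male Adeno-CMV at day 3 (13.30 ± 1.14, SD, n = 2 pools), then in untreated males (12.82 ± 0.74) and male Adeno-CMV at day 5 (12.20 ± 0.15). It was lower in male Adeno-Cux2 at day 5 (9.84 ± 0.02) and at day 3 (9.58 ± 0.79), in untreated females (9.55 ± 0.73) and in females labelled Adeno-CMV (8.83 ± 0.12), and lowest in females labelled Adeno-Cux2 (7.13 ± 0.29). Neighbours among the first 3 overlapped, as did those from male Adeno-Cux2 at day 5 to untreated females. A gap without overlap lay between the untreated or Adeno-CMV males and all other pools, and others set the females labelled Adeno-CMV just below the untreated females and well above the females labelled Adeno-Cux2.

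Scd2 had its highest levels in females labelled Adeno-Cux2 (14.16 ± 0.15), male Adeno-Cux2 at day 3 (13.76 ± 0.44) and male Adeno-Cux2 at day 5 (13.10 ± 0.18). The first 2 of these overlapped. The other 5 sets of pools followed with means of 11.58 to 10.53. Every pool that received Adeno-Cux2 by its label lay above every other pool. The untreated males (10.98 ± 0.16) and untreated females (11.07 ± 0.21) overlapped.

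For the remaining genes the range over the 8 means was smaller or the pools overlapped more. Scd1 was highest in male Adeno-CMV at day 3 (17.06 ± 0.45) and lowest in females labelled Adeno-CMV (14.49 ± 1.30), whose 2 pools were 13.57 and 15.41. The lowest mean was in male Adeno-Cux2 at day 3 for Fads1 (13.15 ± 0.11), Fads2 (11.80 ± 0.13), Elovl2 (14.30 ± 0.05), Elovl5 (15.71 ± 0.08) and Elovl6 (12.81 ± 0.06). Fads1 and Fads2 were both highest in untreated females, at 14.52 ± 0.11 and 13.08 ± 0.01. Elovl1 spanned the least, with means of 12.82 in untreated females to 13.54 in females labelled Adeno-Cux2.

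**Figure D3:**
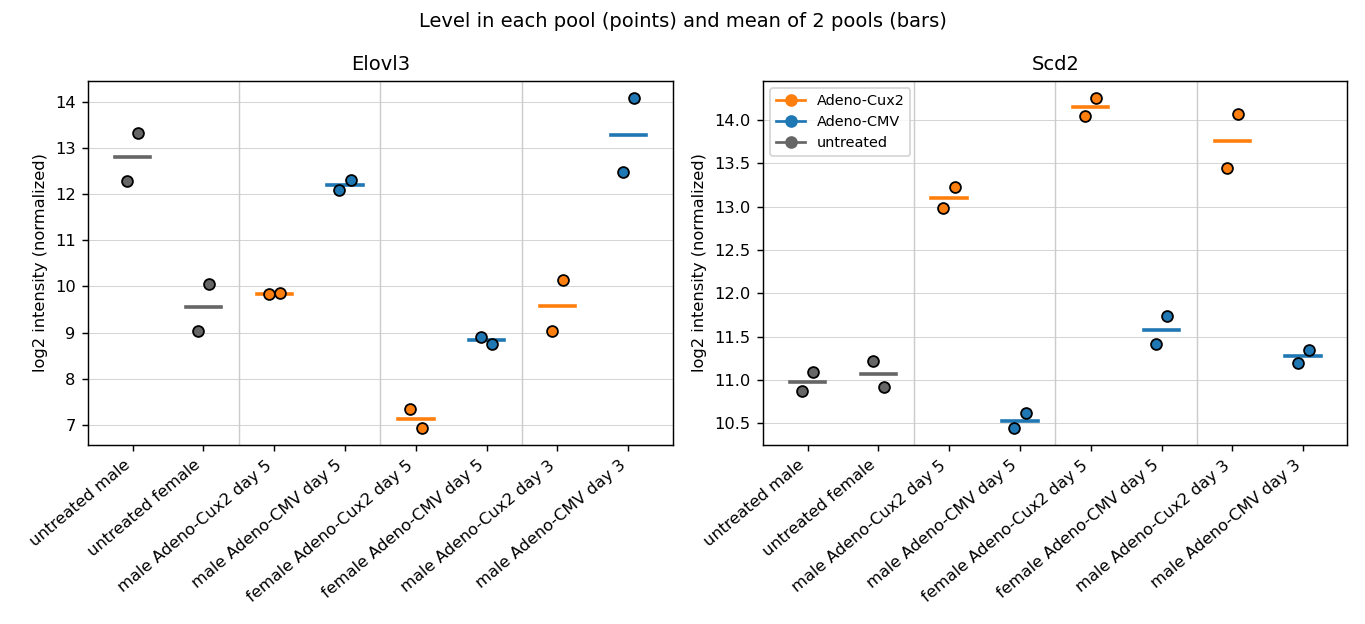
Normalized log2 intensity (vertical axis) of Elovl3 and Scd2 in each of 16 pools, with the mean of the 2 pools as a bar, for untreated mice and for mice labelled Adeno-Cux2 or Adeno-CMV. Elovl3 is above 12 in untreated and Adeno-CMV males and at or below 10.14 in the others, and Scd2 is at or above 12.98 in the Adeno-Cux2 pools and at or below 11.74 in the others.

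Genes whose 4 log2 ratios ran closest to those of Elovl3 were sought among 18540 genes by the root mean square difference over the 8 arrays. They were Hsd3b5 (0.495) and Hsd3b4 (0.532), of the 3-beta-hydroxysteroid dehydrogenase family, then an unnamed transcript TC1755975 (0.673), Cyp7b1 (0.797), an oxysterol hydroxylase, and Cyp4a12a (0.83), a fatty acid hydroxylase. Hsd3b5 had ratios of 2.96 in untreated males over females, −1.89 in day 5 males, −1.78 in day 5 females and −3.30 in day 3 males. Closest to Scd2 were Gm6212 (0.336), Cd24a (0.341), Igf2 (0.346), Chil4 (0.381) and Tinag (0.45). Cd24a, a surface protein also listed here as a marker of cholangiocytes and progenitors, had −0.42, 2.44, 2.55 and 2.90 in the same order, and Igf2, a growth factor of fetal liver, −0.09, 2.83, 3.11 and 2.27. These genes were picked for likeness, so the values are a description.

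The other desaturases, elongases and their partners formed a list of 17 genes, of which 15 passed the filter and Scd4 and Elovl4 did not. At day 3 in males 7 were higher and 4 lower, where 22.8% of all probes were higher and 20.1% lower. At day 5 in males 6 were higher and 1 lower, with 12% and 4.78% of all probes, and in females 5 were higher and 0 lower, with 11.2% and 6.2%. In untreated males over females 2 were higher and 1 lower, with 4.71% and 5.07%. The median was 0.17 at day 3 in males, 0.07 at day 5 in males, 0.16 in females and 0.02 in untreated mice. Elovl7, an elongase of saturated chains, was higher in all 3 adenovirus comparisons, with log2 ratios of 2.02 and 2.10 in day 5 males (fitted 2.06 ± 0.15), 1.16 and 0.65 in females (0.90 ± 0.15) and 3.04 and 2.56 in day 3 males (2.80 ± 0.15). The other Elovl7 probe was also higher in these 3, at 0.96, 0.56 and 1.25. In untreated males over females Elovl7 was at −0.77 ± 0.15, a fall that rests on 1 of 2 probes, as the other was at −0.11 (adjusted p = 0.37). Fads3, a member of the Fads family, was also higher in all 3, at 0.89 ± 0.11 in day 5 males, 0.75 ± 0.11 in females and 2.09 ± 0.11 in day 3 males. Hacd4, a dehydratase of the elongation cycle, followed at 1.18 ± 0.08, 0.71 ± 0.08 and 0.83 ± 0.08.

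The genes of this list that are named here for a fall at day 3 carry electrons or complete the elongation cycle. Cyb5b, a cytochrome b5, was at −1.20 ± 0.12, Tecr, the reductase of the last step of elongation, at −0.99 ± 0.10, and Cyb5r3, a cytochrome b5 reductase, at −0.58 ± 0.10. Scd3, a skin form of the stearoyl-CoA desaturase, was at −0.29 ± 0.07 in day 5 males and at 0.44 ± 0.07 in untreated males over females. Cyb5r3, at 0.46 ± 0.10, was the other gene higher in untreated males, and its other probe was at 0.21 (adjusted p = 0.122). As day 5 minus day 3 in males, the ratio was higher for 3 of the 15 genes and lower for 1, where 7.25% of all probes were higher and 4.81% lower. The lower gene was Fads3, at −1.20 ± 0.15 (adjusted p = 0.00627). Further probes at day 3 had the same direction for Fads3 (2.35) and Cyb5b (−0.53).

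All 22 regulators of lipid synthesis passed the filter. At day 3 in males 11 were lower and 2 higher, with a median of −0.42, where 20.1% of all probes were lower and 22.8% higher. The falls were led by Thrsp, a lipogenic nuclear protein, at −2.43 ± 0.30, Ppara, the receptor PPAR-alpha, at −1.31 ± 0.11 and Insig1, a sterol-dependent brake on SREBP processing, at −1.15 ± 0.14, and the rises were Mbtps2, a SREBP protease, at 0.67 ± 0.09, although its other 2 probes were at 0.06 and −0.08, and Nfyb, an NF-Y subunit, at 0.56 ± 0.09. Srebf1, which encodes SREBP-1, had −0.47 and −0.36, a fitted −0.41 ± 0.14 (adjusted p = 0.0556), and did not pass. At day 5, 1 was higher and 2 lower in males, namely Nfyb at 0.43 ± 0.09, Thrsp at −1.20 ± 0.30 and Lpin1, a phosphatidate phosphatase and coregulator, at −0.98 ± 0.12, and none was higher and 5 lower in females, led by Lpin1 at −0.83 ± 0.12, Mlxipl, the carbohydrate-responsive factor, at −0.65 ± 0.17 and Ppara at −0.64 ± 0.11. In untreated males over females, Lpin1 was at −1.45 ± 0.12 and Nfyb at −0.53 ± 0.09, and the other Nfyb probe was at −0.23 (adjusted p = 0.125). The medians were −0.13 in males and −0.09 in day 5 females, and −0.14 in untreated mice. The shares of all probes higher and lower were 12% and 4.78% in day 5 males, 11.2% and 6.2% in females, and 4.71% and 5.07% in untreated mice. As day 5 minus day 3 in males, 4 of the 22 were higher and 1 lower, where 7.25% of all probes were higher and 4.81% lower. The rises were led by Insig1 at 0.94 ± 0.19, Ppara at 0.92 ± 0.15 and Rxra, the partner receptor of both PPAR-alpha and LXR, at 0.61 ± 0.09. Lpin1 was the lower gene, at −0.65 ± 0.16. The other Rxra probe was at 0.30 (adjusted p = 0.121), which did not pass. Of 3 further Lpin1 probes, 1 passed, at −0.66, and the others were at −0.38 (adjusted p = 0.0686) and −0.60 (adjusted p = 0.0888).

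Of 23 genes of fatty acid supply and use, 16 were lower and 1 higher at day 3 in males, with a median of −0.75, against the same background. The largest falls were those of Acss2, which makes acetyl-CoA, at −1.58 ± 0.13, Me1, a source of NADPH, at −1.30 ± 0.10, and Scp2, a carrier and thiolase of the peroxisome, at −1.24 ± 0.09. The 3 further probes of Acss2 were at −1.54, −0.21 and 0.07. Fasn, the fatty acid synthase that makes the substrate of Elovl6, had −0.86 and −1.40, a fitted −1.13 ± 0.24 (adjusted p = 0.00805). The rise was that of Acsl4, an acyl-CoA synthetase for arachidonate, at 1.11 ± 0.19. At day 5, 12% of all probes were higher and 4.78% lower in males, and 11.2% and 6.2% in females. Among the 23 genes, none was higher and 8 lower in males (median −0.20), and 1 was higher and 5 lower in females (median −0.06). Those most lower were Me1 (−0.72 ± 0.10), Agpat2 (−0.57 ± 0.11) and Scp2 (−0.54 ± 0.09) in males, and Me1 (−0.66 ± 0.15, from 1 array, as the other was removed as an outlier), Scp2 (−0.49 ± 0.09) and Dgat2 (−0.45 ± 0.12) in females, where Acsl4 was the higher gene, at 0.71 ± 0.19. The Dgat2 fall in females passed on 1 of 3 probes, with the others at −0.26 (adjusted p = 0.127) and −0.38 (adjusted p = 0.0948). In untreated males over females, where 4.71% of all probes were higher and 5.07% lower, Scp2 was at 1.09 ± 0.09 and Fasn at −1.09 ± 0.24, with a median of −0.02 over the list. The other Fasn probe was at −0.53 (adjusted p = 0.174) there and did not pass. As day 5 minus day 3 in males, the ratio was higher for 8 of the 23 genes and lower for none, where 7.25% of all probes were higher and 4.81% lower. Acss2 was at 1.62 ± 0.19 and on its 3 further probes at 1.49, 0.10 and −0.13, of which the first alone passed. Acly was at 1.03 ± 0.23, and its other probe at 0.14 (adjusted p = 0.386) did not pass.

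**Figure D4:**
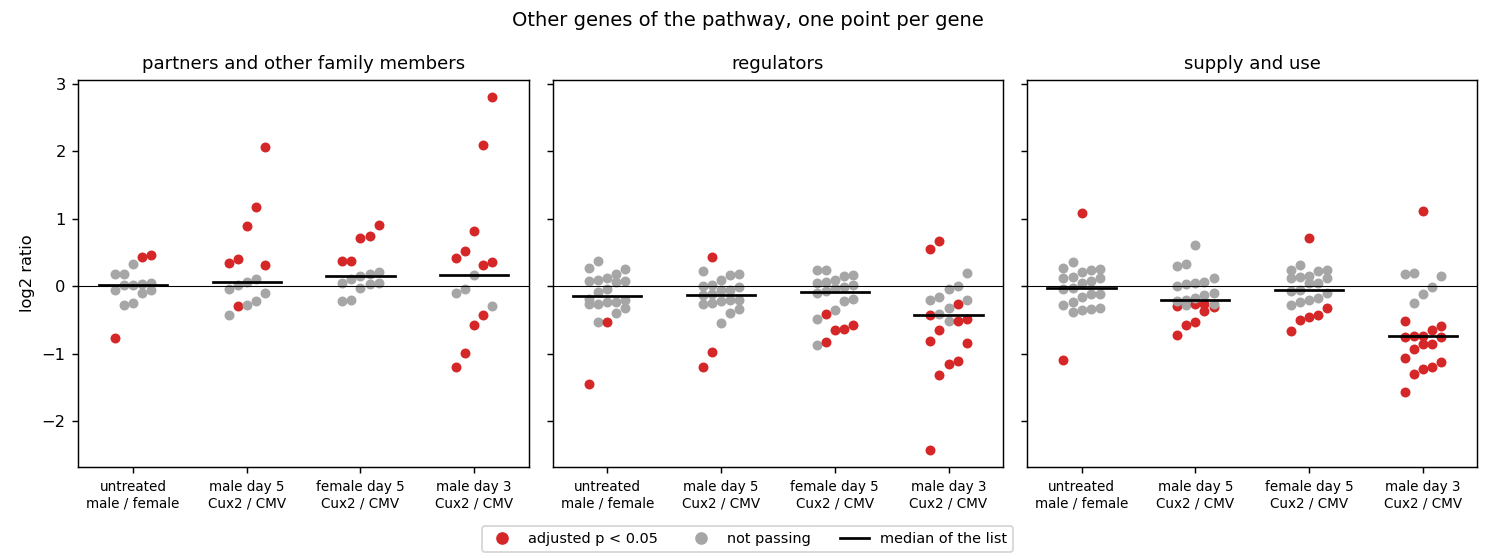
Log2 ratio (vertical axis) of each gene of the 3 further lists in the 4 comparisons, with genes that passed the test in red and the list's median as a black line. At day 3 in males the median of supply and use is −0.75 and that of the regulators −0.42, while the partners and other family members reach 2.80 for Elovl7 and −1.20 for Cyb5b.

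Markers of other cells were counted in the same comparisons, and their part in the results above was not tested. Of all probes, 12% were higher and 4.78% lower in day 5 males, and 11.2% and 6.2% in day 5 females. In day 3 males 22.8% of all probes were higher and 20.1% lower. Of 20 macrophage markers, 19 were higher in day 5 males, 15 in day 5 females and 10 in day 3 males, where 6 were lower. The array medians of that list were 1.43 and 1.38 in day 5 males, 0.85 and 0.73 in females, and 0.44 and 0.16 in day 3 males. In each adenovirus comparison 11 of 12 neutrophil markers were higher. Of 12 stellate cell and fibroblast markers, 10 were higher in day 5 males, 10 in females and 7 in day 3 males, where 1 was lower. Of 10 cholangiocyte and progenitor markers, 6, 8 and 5 were higher in the same order. Of 11 endothelial markers, 5 were higher in day 5 males and 6 in day 5 females, and at day 3 in males 3 were higher and 2 lower. The endothelial counts at day 3 were near the shares of all probes.

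Hepatocyte markers, of which 10 of 12 were on the array and all 10 passed the filter, had 6 lower and none higher at day 3 in males, among them Cyp2e1, an ethanol-metabolizing cytochrome, at −2.49, Tdo2, an enzyme of tryptophan breakdown, at −1.56 and Hnf4a, a hepatocyte transcription factor, at −0.33. At day 5, 3 were higher and 1 lower in males, and 3 higher and 2 lower in females. Skeletal muscle markers were lower in 9 of 12 in females, with array medians of −1.31 and −2.77, and 1 was higher in day 5 males. No exocrine pancreas marker passed the test, but their median was at 3.46 on the untreated array of replicate 2, 4.18 on the female array of replicate 1 and 2.81 on the male day 3 array of replicate 2, against −0.09, −0.83 and 0.08 on the other arrays of those comparisons. Any part of the muscle or pancreas markers in the values of the 9 genes was not tested. In untreated males over females, 9 macrophage, 5 neutrophil, 3 stellate, 2 endothelial, 1 cholangiocyte and 1 adipocyte marker were lower and none of these lists had a higher marker. Adipocyte markers, 10 of which passed the filter, had 3 higher at day 3 in males, 1 in females and 0 in day 5 males. The shares of all probes higher were 22.8%, 11.2% and 12% in the same order. The other lists here are read against the shares of all probes given above, and in untreated mice 4.71% were higher and 5.07% lower.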

How the data were processed

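Liver RNA pools were compared on 8 two-colour Agilent arrays, scanned with Feature Extraction 9.5.3.1 (untreated and male day 5) or 10.7.1.1 (female day 5 and male day 3), per the file headers. Per channel, the deposited files give intensity as the median brightness of a spot and of the ground around it, not normalized. The deposited log10 ratio of red over green and the series matrix, which holds the authors' log10 ratios, were used as an alternative and a check. The deposited flags, with values of 0 or 1, mark outlier, saturated and well-above-background spots.

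In limma 3.58.1 (R 4.3.3), normexp (offset 50) removed the background, and loess within each array gave log2 ratios from the deposited intensity values. Spots marked as outliers were left out. Of 41174 probes, 33335 were kept: for some comparison, both of its arrays had a channel flagged as well above background. One limma fit used a coefficient for each comparison and a dye term, with 3 residual and 3.9 prior degrees of freedom. The method was tested on simulated data with independent noise and with changes in the male day 3 comparison only. Effects of slide or pairing and the differences of days or sexes were not simulated. Levels are log2 intensities after loess and Aquantile. Where a gene had several probes, the brightest stood for it. The 9 genes and all lists were chosen with earlier results of these data known. Named list genes were up to 3 rises and 3 falls of largest size per list and comparison, with Srebf1 and Fasn, hepatocyte markers and further values added after they were seen; 1 gene that the rule names is not reported here. The series text gives 11 untreated females and 3 hybridization experiments, and the labels 10 and 4. The purpose written for the female arrays speaks of males. Replicate numbers coincide with the dye orientation, and no label ties same-numbered arrays of different comparisons to shared mice or days. Deviations of same-numbered arrays from their means correlated between −0.0725 and 0.296, in which dye and any pairing cannot be told apart. The alternatives are given in the closing section.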

Additional observations from a re-analysis of the deposited data

Results flagged for a closer look

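The response of males to Adeno-Cux2 differed between day 5 and day 3, by a limma test of the difference itself over all probes, for 7 of the 10 probes of these genes, all with a higher ratio at day 5, where 7.25% of all probes were higher and 4.81% lower. By genes the count was 6, and it was 0 to 7 when each array was left out in turn: 1 without the male day 5 array of replicate 1, 0 without that of replicate 2 and 1 without the male day 3 array of replicate 2. As day 5 minus day 3, on the log2 scale and with adjusted p-values, the differences were 1.72 for Scd1 (0.0209), 0.94 for Fads1 (0.0237), 0.81 for Fads2 (0.00969), 1.35 for Elovl3 (0.00315), 0.70 and 0.76 for the 2 probes of Elovl5 (0.00893 and 0.00864) and 1.73 for Elovl6 (0.0244). Both arrays at day 5 lay above both arrays at day 3 for each of these 7 probes. The probes were picked by this same difference, so that order is a description and adds no support. All 7 differences compare arrays of separate slides. In the fits without 1 of those arrays, the share of all probes that passed fell as well.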

How the results depend on the processing

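Over the alternatives, 985 of 1050 values of the single genes kept their side of the threshold, 57 lost a passing test and 8 gained one. No value that passed the test changed sign, and 22 that did not pass did, in results of at most 0.461 in size. The count of 8 genes at day 3 in males stayed at 8 in every alternative that kept both arrays of that comparison, and was 6 to 8 when each of the 8 arrays was left out in turn. In untreated mice 2 genes and 9.78% of probes passed. These became 1 and 5.83% with no background subtraction, 1 and 4.17% with the scanner software's ratios, 1 and 1.58% with the 2 arrays alone, 4 genes with the arrays of the same slide only, 6.07% of probes with median centring, and 1 to 3 genes and 2.06% to 16.3% of probes without each array. In day 5 males, 16.8% of probes became 26.3% with the 2 arrays alone and 4.14% to 20.6% without each array. In females (3 genes, 17.4% of probes) 1 gene passed with no background subtraction, and 10.1% of probes with the scanner's ratios, 11.4% with the 2 arrays alone and 4.91% to 21.6% without each array. At day 3 in males, 42.9% of probes became 23% to 47.7%. For female minus male, 0.201% of probes became 0.006% with no background subtraction, 0 with the scanner's ratios, 0.321% with an intensity trend and 0 to 0.318% without each array. For day 5 minus day 3 (6 genes, 12.1% of probes), 2 genes passed with no background subtraction, 1 gene and 1.74% of probes with the scanner's ratios, and 0 to 7 genes and 0.405% to 16.3% of probes without each array. For that difference of days, 10.1% of all probes passed with no background subtraction. Median centring gave a share of 69.2% higher among the passing probes at day 3, against 53.2%, and 33.9%, against 60.1%, in day 5 minus day 3, where 6 genes still passed. Without the dye term (no replicate block), which coincides with the replicate number, 2, 2, 2 and 8 genes passed in untreated mice, day 5 males, females and day 3 males, and 5 in day 5 minus day 3. With no background subtraction, the further lists in females had 3, 1 and 3 genes passing (partners, regulators, supply and use), against 5, 5 and 6, and in untreated mice 0 partners, against 3. The cause of these shifts was not tested. With 2 arrays per comparison and a median standard error of 0.0783 over all probes, small ratios of single genes could not be resolved, and ratios of dim spots, such as Elovl3 in females, depend on the background.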
